A study of Mus musculus with 6 samples.

Results

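Aminoacyl-tRNA synthetases join each amino acid to its tRNA, the step that sets the code for protein synthesis. In mammals one set of enzymes serves the cytosol and another, also encoded in the nucleus, serves the mitochondria, where the products of mitochondrial DNA are translated. A group of the cytosolic enzymes is held in a multi-synthetase complex with scaffold proteins, and many cytosolic synthetase genes are targets of ATF4, a transcription factor of the amino acid and stress response. The enzymes described here were the 35 synthetase genes chosen by name, 20 cytosolic and 15 mitochondrial (those whose names end in 2), out of 47643 annotated gene IDs in the tables. All 35 were annotated as protein coding, and all 35 averaged 1 FPKM or more across the 6 libraries, which was the filter on low values and which 12113 genes passed in all.

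RNA was sequenced from induced regulatory T cells (iTreg), which are Foxp3+ cells made from CD4+ T cells in culture. In 3 libraries the cells had received 100 nM PGE2 for 6 h, and in 3 libraries the vehicle, DMSO. Cells of both groups came from spleens of C57BL/6 mice carrying Foxp3-DTR/EGFP, were cultured for 2 days with plate-bound anti-CD3, soluble anti-CD28 and TGF-β before the treatment and were sorted on the green reporter of Foxp3 after it. The labels name splenic CD4+ cells as the start and do not say that Foxp3+ cells already present were removed, so the sort can hold those as well. PGE2 is a lipid mediator sensed by the EP receptors, of which EP2 and EP4 raise cAMP, and the title of the series ties those receptors to regulatory T cells in tumours. Whether replicates are different mice or different cultures is not given, and the p-values therefore describe the spread of these samples, which may be technical.

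Levels are in FPKM, which divides a gene's fragments by transcript length and by the library's total and so allows genes to be compared. Depth, as the constant that links coverage to FPKM in each table, was 4.542 to 5.446 gigabases of fragments in the PGE2 libraries and 3.996 to 5.121 in the vehicle libraries. The median read coverage over the 35 genes was 50.5 to 65.2 with PGE2 and 49.0 to 73.7 with vehicle. The 5 fixed T cell and Treg markers (Cd3e, Cd4, Foxp3, Il2ra and Ctla4) summed to 1376 to 1483 FPKM with PGE2 and to 1257 to 1330 FPKM with vehicle, and 1 of them, Ctla4, rose (log2 change 0.79, adjusted p = 0.0076 by limma). The 4 B cell markers summed to 3.55 to 4.33 FPKM with PGE2 and to 3.83 to 5.70 FPKM with vehicle, the 4 CD8 and NK markers to 5.92 to 6.64 FPKM with PGE2 and to 5.27 to 5.59 FPKM with vehicle with Ncr1 and Klrb1c at 0 throughout, and the 4 myeloid markers to under 1 FPKM in every library. The part of these cells in the results was not tested. Replicate 3 stood apart in both groups: the 18S ribosomal RNA entry Rn18s-rs5 was at 2916 FPKM in PGE2 replicate 3 and at 2689 FPKM in vehicle replicate 3, against 890 and 931 FPKM in the other PGE2 libraries and 726 and 793 FPKM in the other vehicle libraries.

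The promoter sequences of the genes that stood out are given here because ATF4 with C/EBP proteins is known to bind a short element, the amino acid response element, in the promoters of its target genes. RefSeq windows of build GRCm38.p6, running from 250 bases before to 50 bases after the gene start, were at hand for 26 of the 35 genes, 13 cytosolic and 13 mitochondrial. The core TGATGCAA, searched on both strands, was in 4 of the 13 cytosolic windows (Iars, Aars, Tars and Yars), in 0 of the 13 mitochondrial windows and in 0.895% of the 32851 windows of all genes. The looser core TGATGNAA, of which TGATGCAA is one form, was in the same 4 windows and that of Gars, in 0 mitochondrial windows and in 3.97% of all windows. The full cAMP response element TGACGTCA was in 0 of the 26 windows and in 1.79% of all windows, and the shorter TGACG, its first 5 letters, was in 5 cytosolic and 5 mitochondrial windows and in 20.8% of all. A match is a description of these letters and not evidence of binding.

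The 4 genes with the lowest adjusted p in the comparison are shown from 230 bases before to 20 bases after the start, 5′ to 3′ on the strand of the gene. Capitals mark TGATGNAA on either strand in Iars and Aars and TGACG on either strand in Mars (listed as Mars1 by RefSeq) and Eprs.
Iars, chr13:49681900-49682149, plus strand: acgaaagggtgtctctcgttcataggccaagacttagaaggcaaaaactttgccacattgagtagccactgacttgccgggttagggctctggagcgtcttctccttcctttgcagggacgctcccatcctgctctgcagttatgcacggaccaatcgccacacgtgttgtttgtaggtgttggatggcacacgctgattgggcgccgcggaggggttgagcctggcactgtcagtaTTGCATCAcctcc
Aars, chr8:111033612-111033861, plus strand: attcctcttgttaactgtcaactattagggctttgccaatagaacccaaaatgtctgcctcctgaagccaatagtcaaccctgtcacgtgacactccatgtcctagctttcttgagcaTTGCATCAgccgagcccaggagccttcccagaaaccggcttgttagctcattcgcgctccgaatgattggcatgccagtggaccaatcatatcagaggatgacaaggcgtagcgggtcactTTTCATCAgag
Mars, chr10:127311767-127312016, minus strand: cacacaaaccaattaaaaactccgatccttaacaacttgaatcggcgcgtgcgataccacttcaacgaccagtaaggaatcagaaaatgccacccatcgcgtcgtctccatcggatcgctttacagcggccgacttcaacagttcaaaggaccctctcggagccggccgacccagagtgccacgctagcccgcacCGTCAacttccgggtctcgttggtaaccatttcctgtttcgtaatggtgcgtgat
Eprs, chr1:185362814-185363063, plus strand: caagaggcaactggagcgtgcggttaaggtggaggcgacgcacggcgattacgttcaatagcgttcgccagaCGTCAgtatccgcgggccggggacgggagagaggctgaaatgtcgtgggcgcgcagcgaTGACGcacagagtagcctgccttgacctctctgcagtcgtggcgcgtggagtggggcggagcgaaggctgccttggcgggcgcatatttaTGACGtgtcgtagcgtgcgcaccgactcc
The core in Aars began 112 bases before the start, and Aars held a second match of the looser core from base 10 after it. In Iars the core began at base 8 after the start. These starts are those of RefSeq. The annotated Aars gene whose FPKM is given started at 111033144, before the window shown, so the core lay inside that gene. The annotated Iars gene started at 49682100, inside the window shown.

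The other 3 windows that held TGATGNAA, 2 of them with the core TGATGCAA and that of Gars with the looser form alone, are shown from 40 bases before to 20 bases after the start, with the match on either strand in capitals.
Tars, chr15:11399639-11399698, minus strand: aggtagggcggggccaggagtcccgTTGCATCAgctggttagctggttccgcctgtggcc
Yars, chr4:129189863-129189922, plus strand: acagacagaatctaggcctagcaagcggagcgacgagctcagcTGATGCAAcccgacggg
Gars, chr6:55037961-55038020, plus strand: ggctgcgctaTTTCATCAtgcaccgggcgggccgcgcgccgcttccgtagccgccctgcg
The match began 15 bases before the RefSeq start in Tars, 30 bases before it in Gars and at base 4 after it in Yars. The annotated Yars gene whose FPKM is given started at 129189760, before the window shown.

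Most cytosolic synthetases were present at over 10 FPKM and most mitochondrial ones at under 10 FPKM. Averaged over all libraries the cytosolic genes lay between 12.4 FPKM (Cars, cysteine) and 85.2 FPKM (Kars, lysine, whose gene also supplies the mitochondrial enzyme), with a median of 35.6 FPKM. The mitochondrial genes lay between 1.13 FPKM (Mars2, methionine) and 106 FPKM (Lars2, leucine), with a median of 7.46 FPKM, and 12 of the 15 were under 10 FPKM while all 20 cytosolic genes were over 10.

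**Figure D1:**
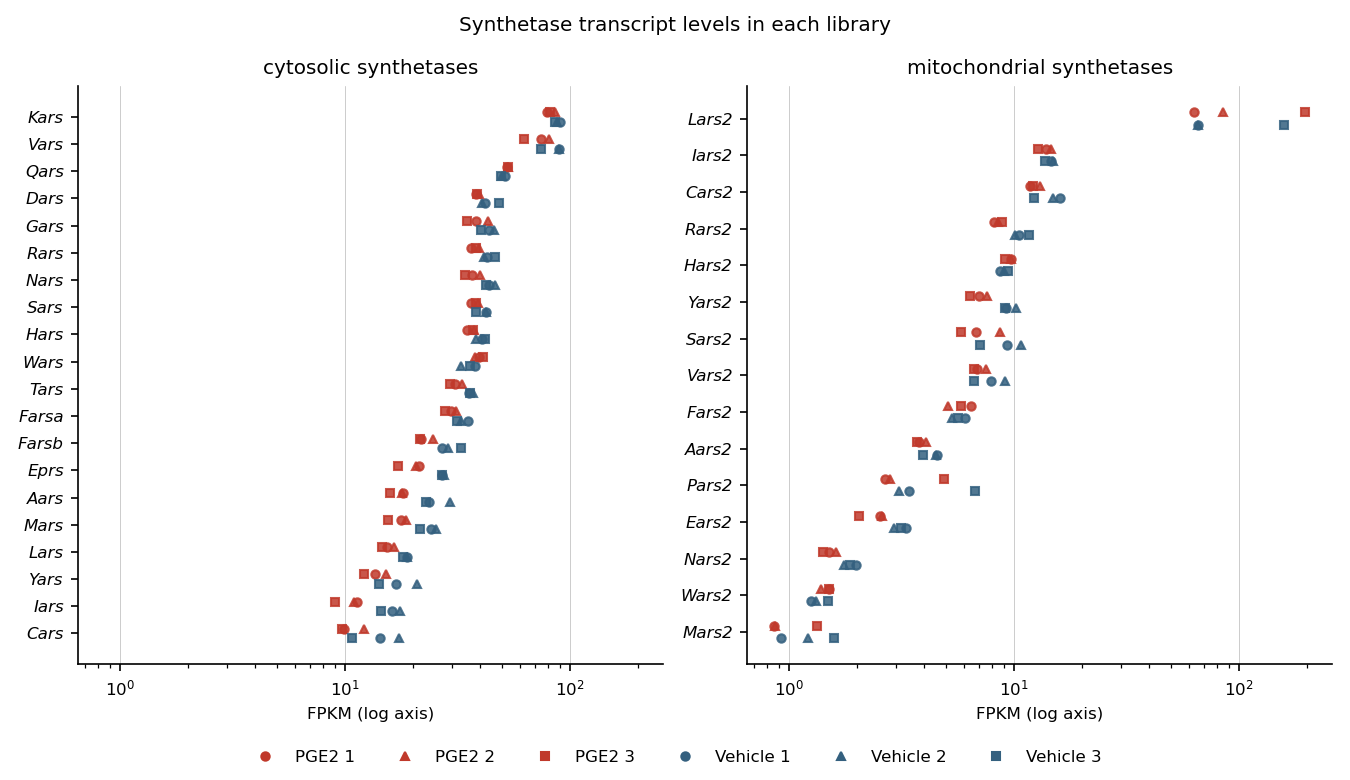
FPKM of each of the 35 synthetases in every library on a log axis, with PGE2 (red) above vehicle (blue) for each gene and the replicate number given by the symbol; genes are ordered by mean level. The cytosolic genes lie between 12.4 and 85.2 FPKM on average and most mitochondrial genes under 10. Lars2 has the highest mean through its replicate 3 values, the highest in both groups, and lies below Kars in replicates 1 and 2.

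With PGE2 most synthetase transcripts were at a lower level, by modest amounts. The mean log2 value was lower in 18 of 20 cytosolic and in 11 of 15 mitochondrial genes, against 56.7% of all tested genes; it was higher in 2 cytosolic and 4 mitochondrial genes, against 43.3% of all. Of the 6 on the higher side, Fars2 and Lars2 turned to the lower side when single libraries were left out. Limma, a linear model, draws each gene's variance toward a trend over all genes. By it 0 of the 35 passed an adjusted p of 0.05 over the 12113 genes, where 0.239% fell and 0.57% rose. At an unadjusted p under 0.05, 9 cytosolic and 3 mitochondrial genes were lower and 0 were higher. Among all tested genes 7.59% were lower and 5.46% higher. With the replicate number as a block, which compares libraries of the same number, 4 cytosolic genes fell (Iars, Aars, Mars and Eprs), 0 rose and 0 mitochondrial genes changed, where 1.49% of all genes fell and 1.77% rose. Same-numbered libraries deviated together, most clearly those of replicate 3, so both fits are given. In bulk RNA, fewer cells of a type and less RNA per cell cannot be told apart.

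The groups did not overlap for 13 cytosolic genes that were lower with PGE2, for 2 that were higher (Qars and Wars) and for 4 mitochondrial genes that were lower, against 11.9% of all tested genes lower and 7.81% higher. In 17 cytosolic and 11 mitochondrial genes the PGE2 library was below the vehicle library in each of the 3 same-numbered pairs, against 24.5% of all tested genes. The synthetases are not independent of each other, and these counts are descriptions.

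**Figure D2:**
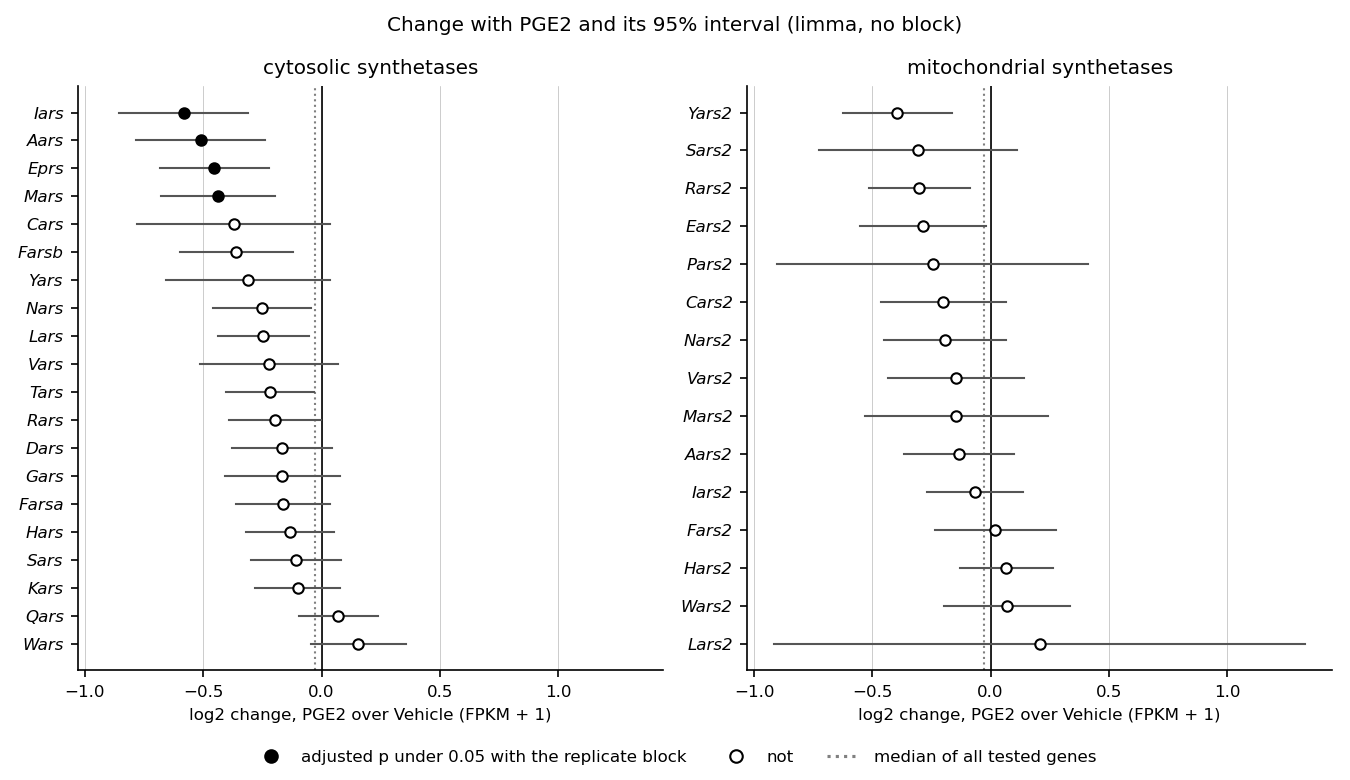
Log2 change of each synthetase, PGE2 over vehicle on the log2(FPKM + 1) scale, with its 95% interval from limma without the block; filled circles are genes with an adjusted p under 0.05 with the replicate block, and the dotted line is the median of all tested genes, -0.03. The points lie left of 0 for 18 of 20 cytosolic and 11 of 15 mitochondrial genes, and the 4 filled ones are Iars, Aars, Eprs and Mars.

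Iars (ENSMUSG00000037851.13, chromosome 13 from 49682100 to 49734267), which charges isoleucine tRNA and sits in the multi-synthetase complex, had the largest difference. It was at 11.3, 11.0 and 9.01 FPKM with PGE2 and at 16.1, 17.6 and 14.5 FPKM with vehicle. Every PGE2 library lay below every vehicle library, and the PGE2 mean was 35.2% lower. The log2 change was -0.58 (SE 0.12), with an adjusted p of 0.078 by limma and 0.02 with the block, and the fall held with the block when each library was scaled to the same median (adjusted p = 0.031).

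Aars (ENSMUSG00000031960.14, chromosome 8 from 111033144 to 111057664), the alanine enzyme, was at 18.2, 17.95 and 15.8 FPKM with PGE2 and at 23.6, 29.2 and 22.8 FPKM with vehicle. The groups were apart, and vehicle replicate 2 was the highest library. The log2 change was -0.51 (SE 0.12), with an adjusted p of 0.11 by limma, 0.036 with the block and 0.063 with the block and a common median, where the call was lost. In read coverage the log2 change of Aars was smaller, -0.26 (SE 0.10, adjusted p = 0.3 by limma). For its assembled locus it was -0.33, also smaller than for the annotated entry. The annotated gene held 53.9% to 79.8% of the FPKM of that locus, and its annotated span overlaps Exosc6 on the same strand by 1326 bases.

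Mars (ENSMUSG00000040354.14, chromosome 10 from 127296221 to 127311786), the methionine enzyme of the complex, was at 17.7, 18.6 and 15.6 FPKM with PGE2 and at 24.2, 25.5 and 21.6 FPKM with vehicle. The lowest library of each group was replicate 3, and the groups did not overlap. The log2 change was -0.44 (SE 0.10), with an adjusted p of 0.12 by limma, 0.033 with the block and 0.048 with the block and a common median. The 3′ end of Mars overlaps that of Ddit3, the stress factor CHOP on the opposite strand, by 68 bases.

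Eprs (ENSMUSG00000026615.14, chromosome 1 from 185363044 to 185428360) encodes the fused enzyme for glutamate and proline, also in the complex. It was at 21.4, 20.6 and 17.2 FPKM with PGE2 and at 27.1, 27.5 and 27.1 FPKM with vehicle. The vehicle libraries agreed closely, and each PGE2 library was below them. The log2 change was -0.45 (SE 0.10), with an adjusted p of 0.1 by limma, 0.049 with the block and 0.065 with the block and a common median, where the call was lost. Without replicate 3 of both groups 0 of these 4 genes passed: with the block their adjusted p was 0.071 for Iars, 0.12 for Aars, 0.1 for Mars and 0.14 for Eprs, while the log2 changes were -0.56, -0.51, -0.43 and -0.37 in the same order. None of the 4 passed without the block when any one library was left out.

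**Figure D3:**
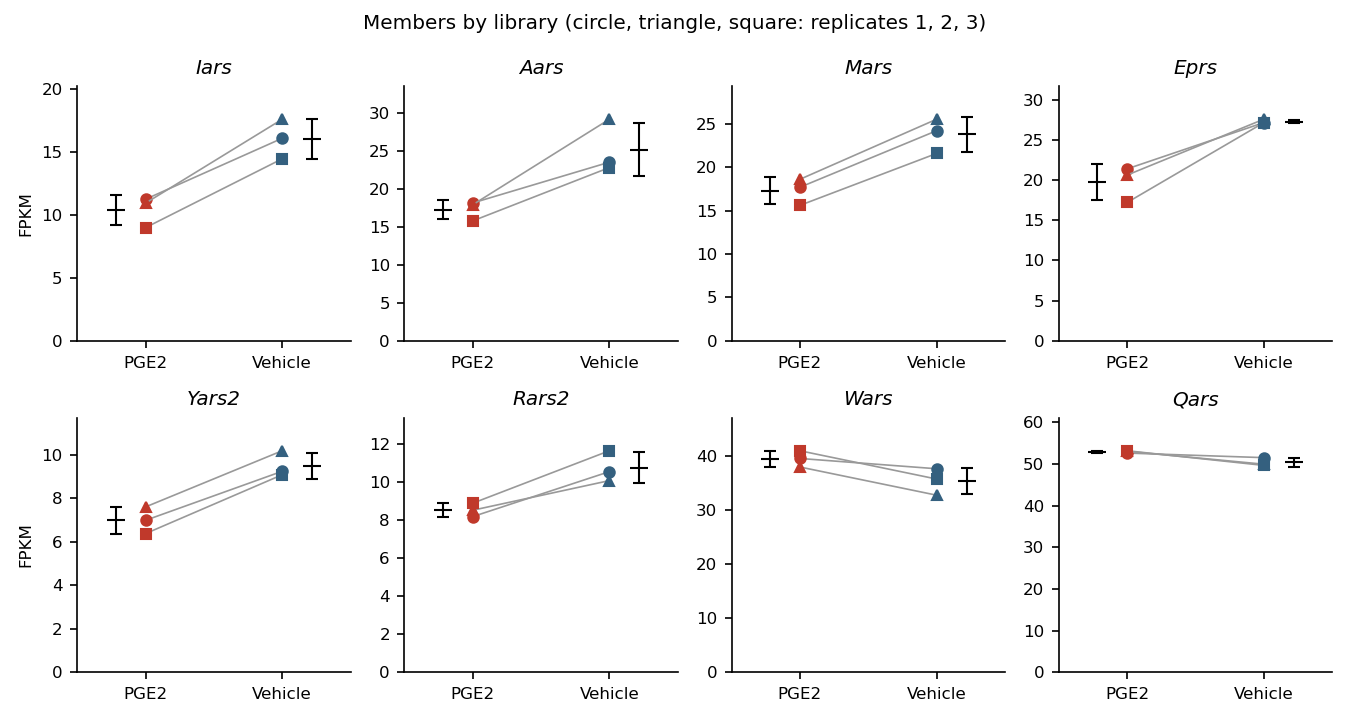
FPKM of 8 synthetases in each library, with PGE2 on the left and vehicle on the right of each panel; grey lines join libraries of the same replicate number and the bars beside the points give mean and SD (n = 3 each). Iars, Aars, Mars, Eprs, Yars2 and Rars2 are lower with PGE2 in every library, and Wars and Qars lie higher in every PGE2 library.

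Among the other members of the multi-synthetase complex the differences were smaller. Lars, for leucine, was at 15.4, 16.6 and 14.7 FPKM with PGE2 and at 18.8, 18.9 and 18.2 FPKM with vehicle, groups that did not overlap (log2 change -0.25, SE 0.08; adjusted p = 0.26 by limma). Rars, for arginine, was at 36.2, 39.4 and 38.1 FPKM with PGE2 and at 43.0, 41.4 and 46.4 FPKM with vehicle, again without overlap (-0.20, SE 0.08). Dars, for aspartate, averaged 38.7 ± 0.649 FPKM with PGE2 and 43.7 ± 4.24 FPKM with vehicle (SD, n = 3 each). Kars was at 79.5, 85.5 and 81.6 FPKM with PGE2 and at 90.7, 88.0 and 86.0 FPKM with vehicle, a difference of 6.85% that left the interval of its log2 change at -0.28 to 0.08. Of the 8 complex members 7 had a lower mean value with PGE2, against 56.7% of all tested genes. In that direction 7 did not overlap between groups, against 11.9% of all tested genes. The median log2 change of the 8 was -0.22, the same as that of the 12 cytosolic synthetases outside the complex. With the block 3 of the 8 complex members fell and 1 of the 12 outside it, where 1.49% of all tested genes fell.

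Qars, for glutamine, was the complex member on the other side. It was at 52.6, 53.0 and 53.1 FPKM with PGE2 and at 51.5, 49.9 and 49.6 FPKM with vehicle. The groups were apart by little, and the log2 change of 0.07 had an interval from -0.10 to 0.24. Wars, for tryptophan, a synthetase also known as a target of interferon-γ, was at 39.6, 38.0 and 41.1 FPKM with PGE2 and at 37.7, 32.8 and 35.8 FPKM with vehicle. Its PGE2 libraries were all above its vehicle libraries, with a log2 change of 0.16 (SE 0.09, interval -0.04 to 0.36; adjusted p = 0.51 by limma and 0.3 with the block).

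The free cytosolic synthetases fell between these values. Farsb, the beta subunit of the phenylalanine enzyme, was at 21.9, 24.7 and 21.5 FPKM with PGE2 and at 27.0, 28.8 and 32.7 FPKM with vehicle, with no overlap (log2 change -0.36, SE 0.10; adjusted p = 0.18 by limma and 0.1 with the block); its span overlaps that of Sgpp2 on the opposite strand. Farsa, its alpha partner, was at 29.7, 31.3 and 27.9 FPKM with PGE2 and at 35.2, 32.9 and 31.6 FPKM with vehicle (log2 change -0.16, SE 0.09). Both subunits were thus lower in every PGE2 library, and neither passed.

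Nars, for asparagine, was at 36.7, 39.9 and 34.3 FPKM with PGE2 and at 43.5, 46.4 and 42.4 FPKM with vehicle (log2 change -0.25, SE 0.09). Tars, for threonine, was at 30.8, 33.0 and 29.4 FPKM with PGE2 and at 35.8, 36.9 and 36.1 FPKM with vehicle (-0.22, SE 0.08). Neither gene overlapped between groups. Cars, the lowest cytosolic gene, was at 9.87, 12.2 and 9.70 FPKM with PGE2 and at 14.3, 17.5 and 10.7 FPKM with vehicle, and Yars, for tyrosine, at 13.6, 15.2 and 12.1 FPKM with PGE2 and at 16.8, 20.8 and 14.2 FPKM with vehicle. For both the groups overlapped, since vehicle replicate 3 was below PGE2 replicate 2, and their log2 changes of -0.37 and -0.31 had intervals that reached 0.04.

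Vars, for valine, averaged 72.5 ± 9.45 FPKM with PGE2 and 84.5 ± 8.52 FPKM with vehicle. Gars, for glycine and shared with the mitochondria, averaged 38.7 ± 4.20 FPKM with PGE2 and 43.4 ± 2.999 FPKM with vehicle, and its annotated value was 37.1% to 75.6% of its assembled locus. Hars, for histidine, averaged 36.6 ± 1.42 FPKM with PGE2 and 40.3 ± 1.84 FPKM with vehicle, and Sars, for serine, 37.9 ± 1.497 FPKM with PGE2 and 41.0 ± 2.28 FPKM with vehicle (SD, n = 3 each). The annotated entries of these 4 had log2 changes between -0.22 and -0.11, and none passed with or without the block. For Gars the log2 change was -0.16 in read coverage and -0.49 for its assembled locus.

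By catalytic domain structure, the median log2 change was -0.28 for the 10 class I cytosolic genes and -0.17 for the 10 class II genes. A lower mean value was seen in 8 class I and 10 class II genes, against 56.7% of all tested genes. Eprs, which joins a domain of each class, was counted in class I. The 13 cytosolic genes listed as ATF4 targets had a median of -0.25 and included all 4 falls with the block. The other 7 had a median of -0.16 and 0 such falls, where 1.49% of all tested genes fell with the block. The median of all tested genes was -0.03, and differences between these lists were not tested.

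The mitochondrial genes had 0 calls in either fit. Yars2, the tyrosine enzyme, came closest, at 7.00, 7.61 and 6.38 FPKM with PGE2 and at 9.25, 10.2 and 9.09 FPKM with vehicle. The groups were well apart, with a PGE2 mean 26.4% lower and a log2 change of -0.40 (SE 0.10; adjusted p = 0.14 by limma and 0.061 with the block). Rars2, for arginine, was at 8.17, 8.51 and 8.88 FPKM with PGE2 and at 10.5, 10.1 and 11.6 FPKM with vehicle, with no overlap (log2 change -0.30, SE 0.09; adjusted p = 0.21 by limma). Ears2, for glutamate, was at 2.54, 2.60 and 2.05 FPKM with PGE2 and at 3.32, 2.94 and 3.14 FPKM with vehicle (-0.29, SE 0.11).

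Sars2, for serine, was at 6.80, 8.66 and 5.84 FPKM with PGE2 and at 9.34, 10.7 and 7.04 FPKM with vehicle. The groups overlapped although each PGE2 library was below the vehicle library of its number (log2 change -0.31, SE 0.18). Nars2, for asparagine, was at 1.5002, 1.62 and 1.42 FPKM with PGE2 and at 1.99, 1.76 and 1.87 FPKM with vehicle, groups that did not overlap (-0.19, SE 0.11). Aars2, Cars2 and Vars2, for alanine, cysteine and valine, had log2 changes between -0.20 and -0.13 with overlapping groups.

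Another 4 mitochondrial genes had differences near 0 in their annotated entries. Iars2, for isoleucine, averaged 13.7 ± 0.898 FPKM with PGE2 and 14.4 ± 0.604 FPKM with vehicle, Fars2, for phenylalanine, 5.78 ± 0.653 FPKM with PGE2 and 5.67 ± 0.400 FPKM with vehicle, Hars2, for histidine, 9.51 ± 0.327 FPKM with PGE2 and 9.04 ± 0.408 FPKM with vehicle, and Wars2, for tryptophan, 1.47 ± 0.0694 FPKM with PGE2 and 1.35 ± 0.128 FPKM with vehicle (SD, n = 3 each). The intervals of their log2 changes spanned 0 and reached no further than -0.27 and 0.34. For the annotated entries, changes of the size seen in Iars thus lay outside them. The annotated value of Wars2 was 62.8% to 99.1% of its assembled locus. Its log2 change was 0.07 for the annotated entry and 0.22 for that locus.

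Lars2, the mitochondrial leucine enzyme, had the highest mean level of the 35 and the largest spread. In replicates 1 and 2 of both groups it was below Kars. It was at 63.0, 84.8 and 197 FPKM with PGE2 and at 65.6, 65.7 and 158 FPKM with vehicle, so that replicate 3 was the high library of each group. The interval of its log2 change, -0.92 to 1.33, was the widest of the 35. The ribosomal RNA entries moved with it: mt-Rnr1 was at 146, 162 and 295 FPKM with PGE2 and at 124, 148 and 279 FPKM with vehicle, and mt-Rnr2 at 162, 176 and 276 FPKM with PGE2 and at 139, 169 and 311 FPKM with vehicle, beside Rn18s-rs5 as given above. The messenger mt-Co1 lay between 3872 and 4633 FPKM in all libraries. The annotated value of Lars2 was 9.99% to 97.3% of its assembled locus. The part of ribosomal RNA in the Lars2 value was not tested. The log2 change of Lars2 was 0.21 for the annotated entry and 0.77 for its assembled locus. Without replicate 3 of both groups that of the annotated entry was 0.15.

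**Figure D4:**
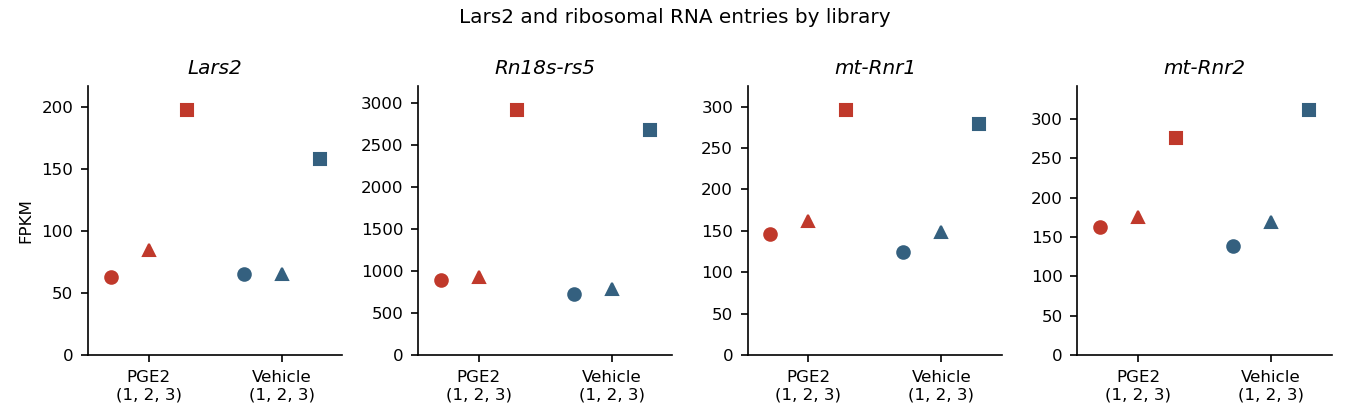
FPKM of Lars2 and of 3 ribosomal RNA entries in each library, PGE2 (red) left of vehicle (blue), replicates 1, 2 and 3 from left to right in each group. Replicate 3 is the highest library of its group in all 4 panels, with Lars2 at 197 FPKM with PGE2 and 158 FPKM with vehicle.

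Pars2 and Mars2, for proline and methionine, were also highest in replicate 3 of both groups, at far lower levels. Pars2 was at 2.68, 2.83 and 4.87 FPKM with PGE2 and at 3.40, 3.07 and 6.69 FPKM with vehicle. Mars2, annotated with 1 exon, was at 0.858, 0.868 and 1.34 FPKM with PGE2 and at 0.924, 1.21 and 1.59 FPKM with vehicle. Within each replicate number both were lower with PGE2, with log2 changes of -0.24 (SE 0.28) and -0.15 (SE 0.17) that did not pass in either fit. For Pars2 the other readouts were closer to 0 or on the other side: its log2 change was -0.079 in read coverage (SE 0.15) and 0.17 for its assembled locus, and its annotated value reached 413% of that locus.

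Summed over genes, the cytosolic synthetases gave 656, 697 and 632 FPKM with PGE2 and 764, 771 and 733 FPKM with vehicle, with every PGE2 library below every vehicle library. The mitochondrial sum without Lars2 was 83.5, 88.1 and 82.5 FPKM with PGE2 and 97.7, 99.2 and 94.2 FPKM with vehicle, again with no overlap. The mitochondrial share of the summed FPKM was 18.3%, 19.9% and 30.7% with PGE2 and 17.6%, 17.6% and 25.6% with vehicle when Lars2 was counted. Without Lars2 it was 11.3%, 11.2% and 11.5% with PGE2 and 11.3%, 11.4% and 11.4% with vehicle, so the balance of the remaining enzymes differed little between groups. The median difference of mean FPKM was 14.3% lower with PGE2 for the cytosolic and 14.3% lower for the mitochondrial genes. On the log2(FPKM + 1) scale, which compresses low genes, the medians were -0.22 and -0.15. Their difference of -0.07 became -0.01 with a pseudocount of 0.1 and 0.00 without PGE2 replicate 3. It became -0.11 with quantile normalization and -0.12 without PGE2 replicate 2.

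For 12 amino acids both compartments had a gene of the same name, and 9 of these pairs had more cytosolic than mitochondrial FPKM in every library. Iars and Iars2 changed places: the ratio of Iars to Iars2 was 0.81, 0.75 and 0.70 with PGE2 and 1.104, 1.18 and 1.05 with vehicle. The ratio of Aars to Aars2 was 4.79, 4.43 and 4.25 with PGE2 and 5.18, 6.48 and 5.81 with vehicle. The ratio of Hars to Hars2 was 3.59, 3.90 and 4.07 with PGE2 and 4.72, 4.23 and 4.42 with vehicle. In these 3 pairs the PGE2 ratios were all below the vehicle ratios. In 1 pair they were all above: the ratio of Rars to Rars2 was 4.43, 4.63 and 4.29 with PGE2 and 4.08, 4.11 and 3.99 with vehicle. In the other 8 pairs the groups overlapped. The ratio of Yars to Yars2, whose members were both lower, was 1.94, 1.99 and 1.90 with PGE2 and 1.82, 2.04 and 1.56 with vehicle. The log2 change was more negative for the cytosolic gene in 8 pairs and for the mitochondrial gene in 4.

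Other genes of tRNA charging and of the ATF4 pathway were read from lists chosen by function. Of 24 tested genes of the GCN2 and ATF4 pathway, 1 fell and 0 rose by limma, against 0.239% of all genes that fell, and 5 fell and 0 rose with the block, against 1.49% that fell. A lower mean value with PGE2 was seen in 22 of the 24, against 56.7% of all genes, and their median log2 change was -0.22. Shmt2, the mitochondrial serine hydroxymethyltransferase, was at 43.1, 50.5 and 44.3 FPKM with PGE2 and at 69.4, 72.0 and 67.6 FPKM with vehicle (log2 change -0.59, SE 0.09; adjusted p = 0.038 by limma and 0.016 with the block), and it did not pass without any one of the 6 libraries, at adjusted p of 0.07 to 0.19.

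Asns, asparagine synthetase, was at 9.39, 11.5 and 11.6 FPKM with PGE2 and at 14.5, 17.4 and 19.0 FPKM with vehicle (adjusted p = 0.095 by limma and 0.017 with the block). Slc7a5, a transporter of large neutral amino acids, was at 36.4, 37.2 and 27.4 FPKM with PGE2 and at 53.8, 57.5 and 43.1 FPKM with vehicle (adjusted p = 0.15 by limma and 0.013 with the block). These 2 genes fell with the block, without overlap between groups. Psat1, an enzyme of serine synthesis, was at 48.1, 50.4 and 45.7 FPKM with PGE2 and at 57.5, 60.5 and 59.0 FPKM with vehicle, with no overlap and no call (adjusted p = 0.16 by limma and 0.088 with the block). The next 4 genes were chosen after their values were seen. Chac1, a glutathione-degrading enzyme, averaged 0.979 ± 0.508 FPKM with PGE2 and 2.64 ± 0.942 FPKM with vehicle (adjusted p = 0.2 by limma and 0.016 with the block). Sesn2, a sestrin that senses leucine, averaged 17.9 ± 2.55 FPKM with PGE2 and 25.1 ± 5.49 FPKM with vehicle (adjusted p = 0.31 by limma and 0.039 with the block). Atf4 itself was at 129, 145 and 93.9 FPKM with PGE2 and at 160, 169 and 121 FPKM with vehicle, which overlapped and did not pass (adjusted p = 0.58 by limma and 0.093 with the block). Aldh18a1, an enzyme of proline synthesis, lay on the higher side without overlap, at 57.0, 56.9 and 46.7 FPKM with PGE2 and at 43.3, 43.7 and 38.1 FPKM with vehicle (log2 change 0.35, SE 0.11; adjusted p = 0.23 by limma and 0.055 with the block). Phgdh, the highest of the list, averaged 147 ± 13.2 FPKM with PGE2 and 154 ± 5.73 FPKM with vehicle.

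Of 10 scaffold, export and tRNA quality factors 0 were called in either fit and all 10 had a lower mean value, against 56.7% of all tested genes, with a median of -0.12. Xpot, the nuclear exporter of tRNA, was at 9.53, 9.35 and 8.10 FPKM with PGE2 and at 11.6, 12.4 and 12.4 FPKM with vehicle (adjusted p = 0.12 by limma). Dtd1, which removes D-amino acids from tRNA, was at 4.82, 5.57 and 5.07 FPKM with PGE2 and at 8.31, 6.80 and 6.95 FPKM with vehicle (adjusted p = 0.13 by limma). Neither gene overlapped between groups. Of the 3 scaffolds of the complex, Eef1e1 was at 18.6, 19.6 and 21.4 FPKM with PGE2 and at 23.8, 24.4 and 28.0 FPKM with vehicle (adjusted p = 0.19 by limma), whereas Aimp1 averaged 49.9 ± 4.33 FPKM with PGE2 and 50.8 ± 1.40 FPKM with vehicle. Of 11 partners of mitochondrial charging and translation 0 were called and all 11 had a lower mean value, against the same 56.7%, with a median of -0.10. Gatc, a subunit of the amidotransferase that makes glutamine tRNA in mitochondria, averaged 6.78 ± 0.258 FPKM with PGE2 and 8.29 ± 0.545 FPKM with vehicle, and Tufm, the mitochondrial elongation factor and the highest, averaged 34.9 ± 2.16 FPKM with PGE2 and 38.4 ± 2.75 FPKM with vehicle. Of 6 cytosolic elongation factor genes 0 were called and 4 had a higher mean value, against 43.3% of all tested genes, with a median of 0.06, and Eef1a1, which carries charged tRNA to the ribosome, averaged 6428 ± 798 FPKM with PGE2 and 5895 ± 1075 FPKM with vehicle (SD, n = 3 each).

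**Figure D5:**
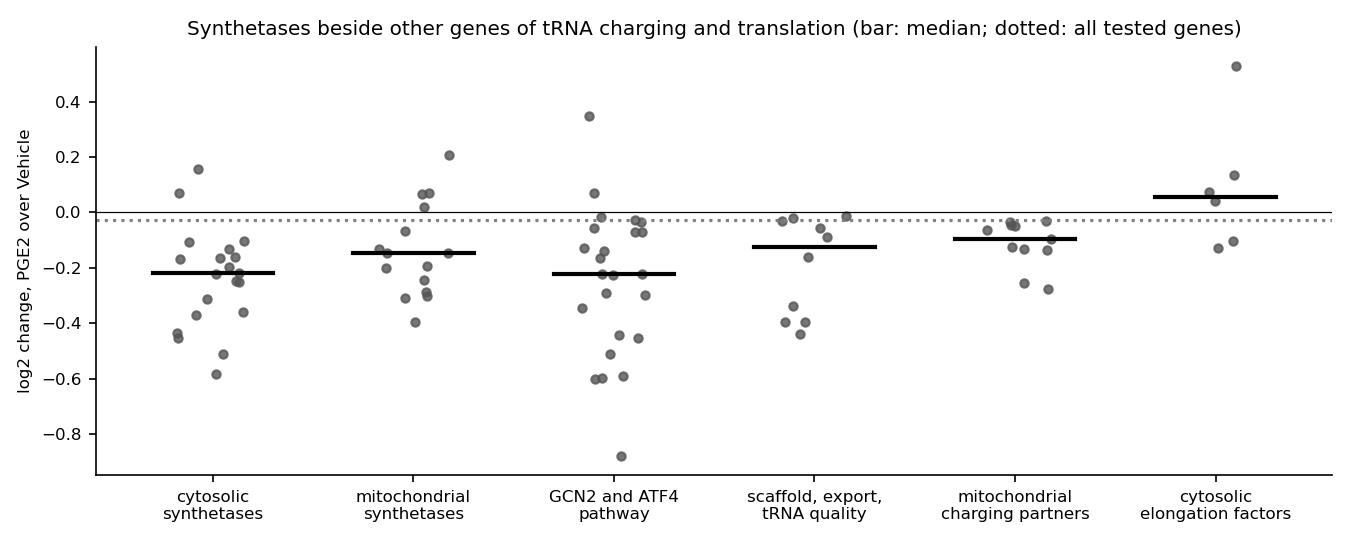
Log2 change, PGE2 over vehicle on the log2(FPKM + 1) scale, of each tested gene (point) in 6 lists, with the median of each list as a bar and that of all tested genes as a dotted line at -0.03. The medians are -0.22 for the cytosolic synthetases, -0.15 for the mitochondrial ones, -0.22 for the GCN2 and ATF4 pathway and 0.06 for the cytosolic elongation factors.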

How the data were processed

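RNA from 6 sorted samples, 3 with PGE2 and 3 with vehicle, was made into libraries with a stranded mRNA kit, per the labels' protocols. Reads were trimmed with Trim Galore and aligned to mm10 with HISAT2, per the submitters' processing notes; their versions, the quantifier behind the gene tables and its strand setting were not given in the sources used here. The authors deposited 1 table per library with FPKM, read coverage per base and a TPM column for each gene. The coverage signal is not scaled to library size, per the file headers and values. TPM as deposited by the authors was handled as a score, because assembled loci are listed beside annotated genes and the column sums to more than TPM should. Entries repeated under 1 gene ID were summed. These values rest on coverage and not on whole reads, so no count test was run and no interval for counting error is given.

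The 12113 of 47643 IDs that averaged 1 FPKM or more were tested with limma 3.58.1 in R 4.3.3 on log2(FPKM + 1), with a variance trend, Benjamini-Hochberg adjustment over all of them, a threshold of 0.05 and two-sided p-values. A fold change on this scale understates that of low genes. This fit was tested on simulated data in which libraries varied independently of each other. A second fit had the replicate number of the sample titles as a block and was not tested in that way. Over 12113 genes the deviations of same-numbered libraries from their group means correlated at 0.227, 0.312 and 0.529, all over 0.1, so the numbers were taken to pair the samples. Libraries of different numbers correlated at 0.271 (PGE2 1 with Vehicle 2) and 0.149 (PGE2 2 with Vehicle 1) and below 0 otherwise, so the numbers set replicate 3 apart and separate replicates 1 and 2 less clearly. "Rose" and "fell" are used of genes that passed in either fit, and the fit is named.

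All 35 synthetases could be named. Values in every library were due for those called, those without overlap at an unadjusted p under 0.05, the 3 largest changes and the highest and lowest levels of each compartment; from each other list, up to 4 genes of smallest p and the highest-level gene could be named. Chac1, Sesn2, Atf4 and Aldh18a1 fall outside this rule. The members and lists were chosen with earlier results of these data known. Alternatives covered the pseudocount, filter, scaling, input column, variance trend, block and each library left out; those without replicate 3 of both groups, the block with a common median, the block without replicate 3 and the share without Lars2 were added after seeing the data. Promoter sequences are from RefSeq, build GRCm38.p6.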

Additional observations from a re-analysis of the deposited data

How the results depend on the processing

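The medians of the cytosolic and of the mitochondrial synthetases stayed below 0 in every alternative run, at -0.28 to -0.17 and at -0.22 to -0.10. The number of genes changed, 98 (69 higher, 29 lower), was 45 with no filter, 159 from coverage, 63 from the TPM column and 22 to 69 when 1 library was left out. With the replicate block it was 395 (215 higher, 180 lower), and 310 with the block and a common median. Synthetases called were 0 without the block in every alternative, 4 cytosolic with the block and 2 (Iars and Mars) with the block and a common median; without replicate 3 of both groups the block called 0. The block changed no call among the mitochondrial synthetases. The mitochondrial share of summed FPKM, 21.6%, was 11.4% with Lars2 left out. Fars2 turned to -0.017 from the TPM column and lay between -0.047 and 0.092 when 1 library was left out. Lars2 lay between -0.27 and 0.63 and Pars2 between -0.46 and 0.042 when 1 library was left out. The cause of these shifts was not tested. The sources give no read counts per gene, so counting error at the lowest levels, near 1 FPKM, is unknown.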
